A study of Homo sapiens with 11 samples.

Results

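The 10 genes SLC29A1, SLC29A2, SLC28A3, DCK, CDA, DCTD, RRM1, RRM2, RRM2B and TYMS act in the uptake, activation, breakdown and targets of the nucleoside drug gemcitabine and in the supply of DNA building blocks. They were chosen by gene symbol from the 23434 rows of the authors' deposited table, and all 10 had a row. The table comes from RNA-seq of liver tumours seeded by PANC1 LM3 cells, a liver-metastatic derivative (generation 3) of the human pancreatic ductal carcinoma line PANC1. In all groups 500000 cells went into the spleen on day 1 and tumours were taken on day 21. The 4 control libraries (shCTRL, genotype WT in the labels) carried a control hairpin, and the other 7 carried a short hairpin RNA against NPTX1, with 3 libraries of shNPTX1_3 and 4 of shNPTX1_4. No drug treatment is named in the labels. The sources used here name neither the host animals and their age nor the promoter of the hairpins, nor whether the cells were clonal. The labels call the libraries of a group biological replicates and do not say whether each is from an animal of its own, so p-values measure the spread between these libraries.

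Gemcitabine is a deoxycytidine analogue, a standard drug for pancreatic cancer. It enters cells through equilibrative transporters (SLC29 family) and concentrative transporters (SLC28 family), and deoxycytidine kinase (DCK) adds its first phosphate. Cytidine deaminase (CDA) inactivates the drug, and dCMP deaminase (DCTD) inactivates its monophosphate. The diphosphate inhibits ribonucleotide reductase, which makes deoxynucleotides from ribonucleotides, and the triphosphate is built into DNA. Thymidylate synthase (TYMS) turns dUMP, the product of DCTD, into dTMP.

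Of the 10 genes, TYMS was lower and RRM1 was higher in tumours of NPTX1 knockdown cells, and the other 8 were not called. TYMS fell by 28.3% and RRM1 rose by 25.6% by the authors' deposited table, so both changes were well under 2-fold. The comparison asked which genes differed between the 7 knockdown libraries as 1 group and the 4 control libraries. A gene was called where its DESeq2 adjusted p, as the authors deposited it, was under 0.05. Of the 9 genes with an adjusted p, 1 was called higher and 1 lower. Over all 18426 named genes with an adjusted p, 27.3% were called, 15.8% higher and 11.5% lower, so 2 of 9 (22.2%) is near the background. With the groups scaled to the same total, RRM1 lost its call and the carrier gene SLC29A2 gained one as lower, so the count stayed at 2 while the genes changed, beside a background of 27.9% (11.6% higher and 16.4% lower). Centred on the median change, the calls were RRM1 and TYMS beside 27.3% of all genes (14.2% higher, 13.1% lower). With p-values adjusted over genes at 2 CPM or more they stood beside 34.3% (20.3% higher, 14% lower), and adjusted over every named gene with a p beside 21.9% (12.8% higher, 9.05% lower). SLC28A3 had no adjusted p.

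Per-library values were not analysed here. Each group is therefore given as the authors' mean in normalized counts (taken as counts divided by library size factors) without an SD. The error of a change is the deposited standard error, and 95% intervals were computed from it. Libraries held 10800000 to 41200000 reads on genes, as read from the steps that a single read makes in low group means. Some low means, that of CDA among them, are not whole multiples of these steps, so the depths and read numbers are estimates. The targeted gene was lower in both knockdown groups, with NPTX1 means of 103, 46.5 and 38.4 normalized counts (shCTRL, then shNPTX1_3, then shNPTX1_4) per the authors' deposited table.

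**Figure D1:**
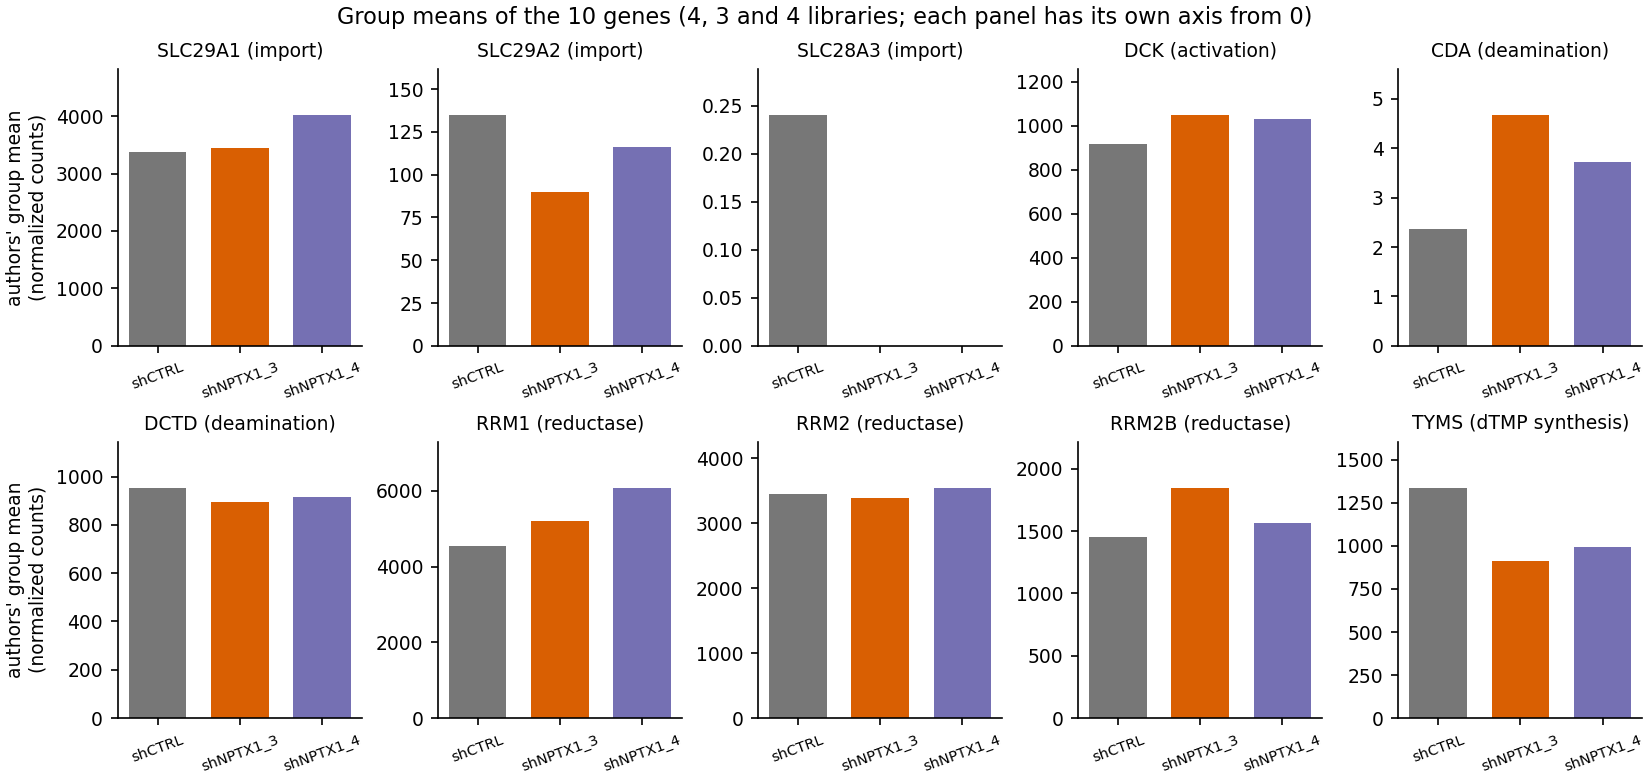
Bars give the authors' mean of each group in normalized counts for the 10 genes, 1 panel per gene with its own axis from 0; there are no error bars because single libraries were not analysed here. TYMS is lower in both knockdown groups than in shCTRL, RRM1 is higher in both, and CDA and SLC28A3 stay below 5 normalized counts.

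Among the carriers, SLC29A1 carried by far the most reads. SLC29A1, the main equilibrative nucleoside transporter of the plasma membrane, had means of 3382 in shCTRL, 3444 in shNPTX1_3 and 4015 normalized counts in shNPTX1_4 per the authors' deposited table. The first hairpin group lay near control and the second above it. Its log2 fold change (7 knockdown over 4 control libraries) was 0.16 with a standard error of 0.12 per the authors' deposited table (adjusted p = 0.335, DESeq2), with a 95% interval from -0.08 to 0.39.

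SLC29A2, the second equilibrative carrier, had means of 135, 89.8 and 116 normalized counts in the same order per the authors' deposited table. Both knockdown groups lay below control, shNPTX1_3 more so. The log2 fold change was -0.35 with a standard error of 0.16 per the authors' deposited table (adjusted p = 0.0797, DESeq2), and its 95% interval ran from -0.65 to -0.04. This gene sat near the threshold: with the groups scaled to equal totals it was called lower (log2 fold change -0.41, adjusted p = 0.0327), and over the alternatives the adjusted p ran from 0.0327 to 0.0940.

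SLC28A3, a concentrative carrier that couples nucleoside uptake to sodium and proton gradients, was close to undetected. A mean of 0.24 normalized counts in shCTRL per the authors' deposited table equals 2 reads, 1 in each of 2 libraries. The 3 shNPTX1_3 and the 4 shNPTX1_4 libraries held 0 reads. A count of 0 allows up to 3 reads over a group, or a mean of 1.27 normalized counts in shNPTX1_3 and 0.730 in shNPTX1_4, limits that cover counting error only. All groups were at or under this limit, so no fold is given.

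DCK, which performs the rate-limiting phosphorylation of gemcitabine, had means of 917, 1048 and 1030.1 normalized counts per the authors' deposited table. Both knockdown groups lay slightly above control and close to each other. Its log2 fold change was 0.18 with a standard error of 0.13 per the authors' deposited table (adjusted p = 0.289, DESeq2), with a 95% interval from -0.07 to 0.43. In linear terms that interval runs from 0.955-fold to 1.35-fold. In GENCODE v29 (build GRCh38), DCK shares 199 exon bases with MOB1B on the same strand, and MOB1B, a kinase regulator, fell by 0.35 on the log2 scale per the authors' deposited table.

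The 2 deaminases stood at very different levels. DCTD had means of 955, 894 and 917 normalized counts per the authors' deposited table, with both knockdown groups just under control. Its log2 fold change was -0.07 with a standard error of 0.10 per the authors' deposited table (adjusted p = 0.629, DESeq2), and the 95% interval from -0.26 to 0.12 holds no change as large as 1.2-fold in either direction. CDA had means of only 2.36, 4.67 and 3.73 normalized counts per the authors' deposited table, very roughly 13.4, 11 and 15.3 reads summed over the libraries of each group. These read numbers are not whole, so the conversion to reads is uncertain for CDA. Its log2 fold change of 0.96 came with a standard error of 0.71 per the authors' deposited table (adjusted p = 0.322, DESeq2). The interval, from 0.741-fold to 5.07-fold, is too wide to place CDA, and a difference was not detectable at this depth.

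**Figure D2:**
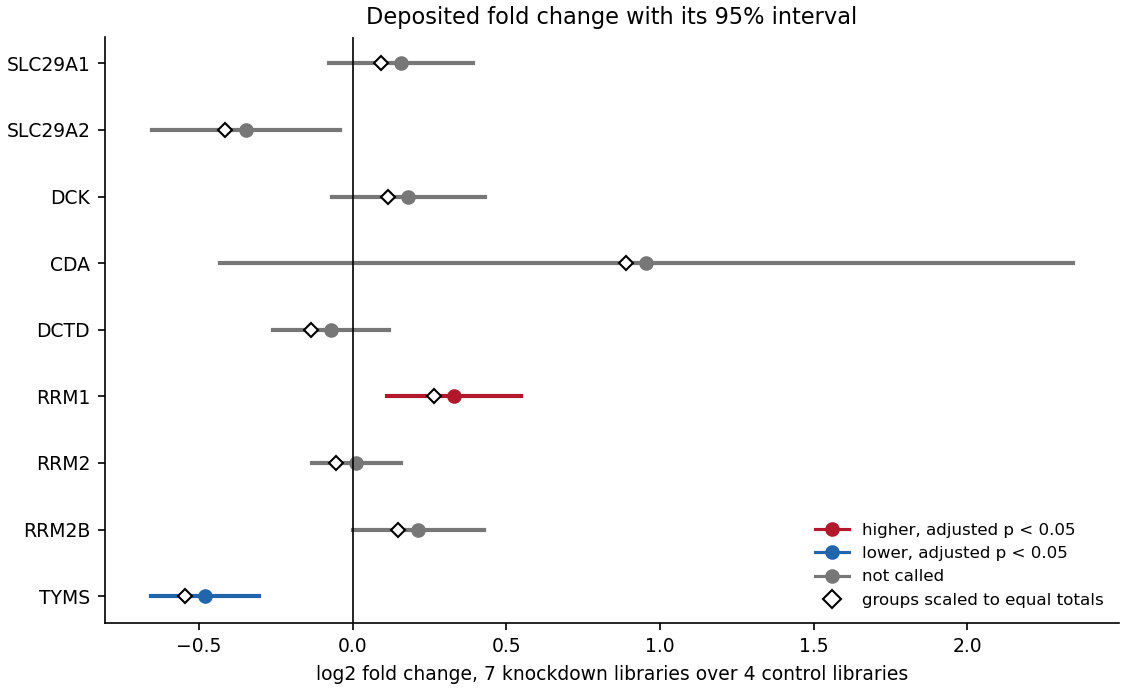
Points give the deposited log2 fold change of 7 knockdown libraries over 4 control libraries for the 9 genes with an adjusted p, lines the 95% interval, and open diamonds the value with the groups scaled to equal totals. The intervals of TYMS and RRM1 lie on opposite sides of 0, and CDA has the widest interval.

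The 3 ribonucleotide reductase genes did not move alike. RRM1, the large subunit that holds the active site, had means of 4546, 5204 and 6086 normalized counts per the authors' deposited table. Both knockdown groups lay above control, shNPTX1_4 more so. RRM1 rose by 0.33 on the log2 scale per the authors' deposited table (SE 0.11, DESeq2 adjusted p = 0.0154), a call that was lost with the groups scaled to equal totals (0.26, adjusted p = 0.0593). Its adjusted p ran from 0.0127 to 0.0593 over the alternatives.

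RRM2, the small subunit made during S phase, had means of 3453, 3387 and 3549 normalized counts per the authors' deposited table. The 3 groups lay within a few percent of each other. Its log2 fold change was 0.013 with a standard error of 0.07 per the authors' deposited table (adjusted p = 0.921, DESeq2), the smallest error of the 10 genes. The 95% interval, 0.912-fold to 1.12-fold, leaves room for small changes in either direction, and the sign turned negative under both other scalings.

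RRM2B, the small subunit induced by p53 that serves resting cells and DNA repair, had means of 1456, 1850.0 and 1567 normalized counts per the authors' deposited table. Both knockdown groups were above control, shNPTX1_3 by more. The log2 fold change was 0.21 with a standard error of 0.11 per the authors' deposited table (adjusted p = 0.131, DESeq2), so the gene was not called. Of 15 p53 target genes listed beside it, 3 rose and 1 fell per the authors' deposited table, with a median log2 fold change of -0.05. That median pools the hairpins. CDKN1A (means of 887, 1398 and 547), GDF15, FDXR, BBC3 and SESN1 lay above control with shNPTX1_3 and below it with shNPTX1_4. XPC did the reverse, and the rest lay on 1 side of control with both. The 4 calls are 26.7% of the list, beside 27.3% of all genes and 32.5% of genes at 2 CPM or more, the level of all 15. GADD45A, a stress-induced growth arrest gene, rose by 1.30 and BTG2, an antiproliferative gene, fell by 0.98 per the authors' deposited table. With equal totals 2 of the 15 were called higher and 3 lower.

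TYMS was the member with the firmest change. Its means were 1339 in shCTRL, 915 in shNPTX1_3 and 995 normalized counts in shNPTX1_4 per the authors' deposited table. Both knockdown groups lay below control and near each other. TYMS fell by 0.48 on the log2 scale per the authors' deposited table (SE 0.09, DESeq2 adjusted p = 2.6e-06), with a 95% interval from 0.634-fold to 0.81-fold. The call held under each scaling and each adjustment tried, with adjusted p-values from 5.55e-08 to 3.07e-06.

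If the scaling of a group is the same for all genes, the ratio of 2 genes within it is free of that scaling. RRM1 reads per TYMS read went from 3.39 in shCTRL to 5.69 in shNPTX1_3 and 6.12 in shNPTX1_4. RRM2 reads per TYMS read went from 2.58 to 3.70 and 3.57. These ratios are descriptions with no test, since their spread between libraries was not analysed here.

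Some reads of TYMS and RRM2 are uncertain. In GENCODE v29, TYMS shares 967 exon bases with ENOSF1, a gene on the opposite strand, and 183 with the noncoding TYMSOS. Whether strand was used in counting is not stated. ENOSF1 fell by 0.18 on the log2 scale per the authors' deposited table (adjusted p = 0.0429, DESeq2), and TYMSOS had means of 26.8, 36.4 and 31.3 normalized counts there without passing the test. GENCODE also lists processed pseudogenes, TYMSP1 and TYMSP2 for TYMS and RRM2P2, RRM2P3 and RRM2P4 for RRM2, and the overlapping gene model AC007240.1 shares 1077 exon bases with RRM2 on the same strand. Their part in the results was not tested.

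The upstream sequences of RRM1 and TYMS are shown because these 2 genes were called in opposite directions, and short stretches of RRM2 are shown for comparison. RefSeq promoter windows (build GRCh38.p14, 250 bases before to 50 after a start) were at hand for 7 of the 10 genes. Each was searched on both strands for E2F sites (TTTCCCGC, TTTGGCGC, TTTCGCGC and TTTGCCGC), the CCAAT box bound by NF-Y (CCAAT) and the cell cycle homology region CHR (TTTGAA and TTCGAA). The letters of the different motifs overlapped in none of these windows. RRM1 is printed from chr11:4094435-4094684 and TYMS from chr18:657403-657652, both on the plus strand and ending at the base before the start. RRM2 has 2 listed starts, so only 30 bases around each CCAAT box before the downstream start are printed, from chr2:10122606-10122635, chr2:10122636-10122665 and chr2:10122663-10122692. Capitals mark motif matches.
RRM1: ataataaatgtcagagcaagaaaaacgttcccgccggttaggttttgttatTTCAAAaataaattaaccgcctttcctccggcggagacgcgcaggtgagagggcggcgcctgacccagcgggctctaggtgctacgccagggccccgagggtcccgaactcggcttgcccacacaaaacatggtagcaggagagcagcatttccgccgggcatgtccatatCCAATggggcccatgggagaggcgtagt
TYMS: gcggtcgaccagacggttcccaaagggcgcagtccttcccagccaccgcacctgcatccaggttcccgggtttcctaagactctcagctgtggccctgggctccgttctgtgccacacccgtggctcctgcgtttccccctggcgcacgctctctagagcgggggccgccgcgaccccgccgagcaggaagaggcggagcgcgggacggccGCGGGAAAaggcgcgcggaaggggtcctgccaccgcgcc
RRM2 box at 123 bases: caaggcgcagCCAATgggaagggtcggagg
RRM2 box at 93 bases: catggcacagCCAATgggaagggccggggc
RRM2 box at 66 bases: ggcaccaaagCCAATgggaagggccgggag

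RRM1 held 1 CCAAT box, 28 bases before its start, and 1 CHR match on the minus strand, 199 bases before it. TYMS held 1 E2F match, TTTCCCGC on the minus strand, which begins 39 bases before the start in the printed direction. RRM2 held 3 CCAAT boxes, at 123, 93 and 66 bases before its downstream start, and the window of its upstream start held 1. Among the other windows, DCK and CDA held 1 E2F match each, a start of SLC29A1 held 1 CHR match, and DCTD held none of these letters. Of all 35116 windows, 3.32% held an E2F match, 34.6% a CCAAT box, 3.26% at least 3 CCAAT boxes and 16.3% a CHR match. These matches describe letters in a window and not sites in use.

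The 2 hairpins gave the same side of control for 7 of the 8 genes with a mean of at least 2 CPM (38.6 normalized counts). Of these 7, both hairpins lay above control for 4 and below it for 3. Among all genes at this level 76.2% had both hairpins on 1 side, and both share the control libraries. RRM2 was the exception, just below control with shNPTX1_3 and just above it with shNPTX1_4.

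Log2 ratios of group means to control (pseudocount 1) carry an approximate standard error rebuilt from the deposited one, which assumes that all libraries of a gene vary alike. For TYMS the ratio was -0.55 ± 0.11 (approximate SE) with shNPTX1_3 and -0.43 ± 0.10 with shNPTX1_4. For RRM1 it was 0.19 ± 0.14 and 0.42 ± 0.12. For SLC29A2 it was -0.58 ± 0.19 and -0.21 ± 0.18. TYMS thus lay more than 4 standard errors below control with either hairpin, while RRM1 lay more than 3 above control with shNPTX1_4 and fewer than 2 above it with shNPTX1_3, with no test of a single hairpin.

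For RRM2B the ratio was 0.35 ± 0.13 with shNPTX1_3 and 0.11 ± 0.12 with shNPTX1_4. For SLC29A1 it was 0.026 ± 0.15 and 0.25 ± 0.13, and for DCK 0.19 ± 0.15 and 0.17 ± 0.14. The difference between the hairpins was largest for SLC29A2, with a log2 ratio of shNPTX1_4 over shNPTX1_3 of 0.37 and an approximate 95% interval from -0.01 to 0.76. A rebuilt z test of that difference called none of the 8 genes, with adjusted p-values from 0.213 for SLC29A2 to 0.935 for DCK. It called 0 of 14127 genes (0% of the background), with 3507 (24.8%) at an unadjusted p under 0.05. The deposited error already contains the difference between the hairpins, so a large difference raises the error it is tested against. GDF15, with means of 314 (shNPTX1_3) and 90.6 (shNPTX1_4), was not called either (rebuilt z test, adjusted p = 0.0711). This test is therefore weak, could hardly call any gene and does not show that the hairpins act alike.

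**Figure D3:**
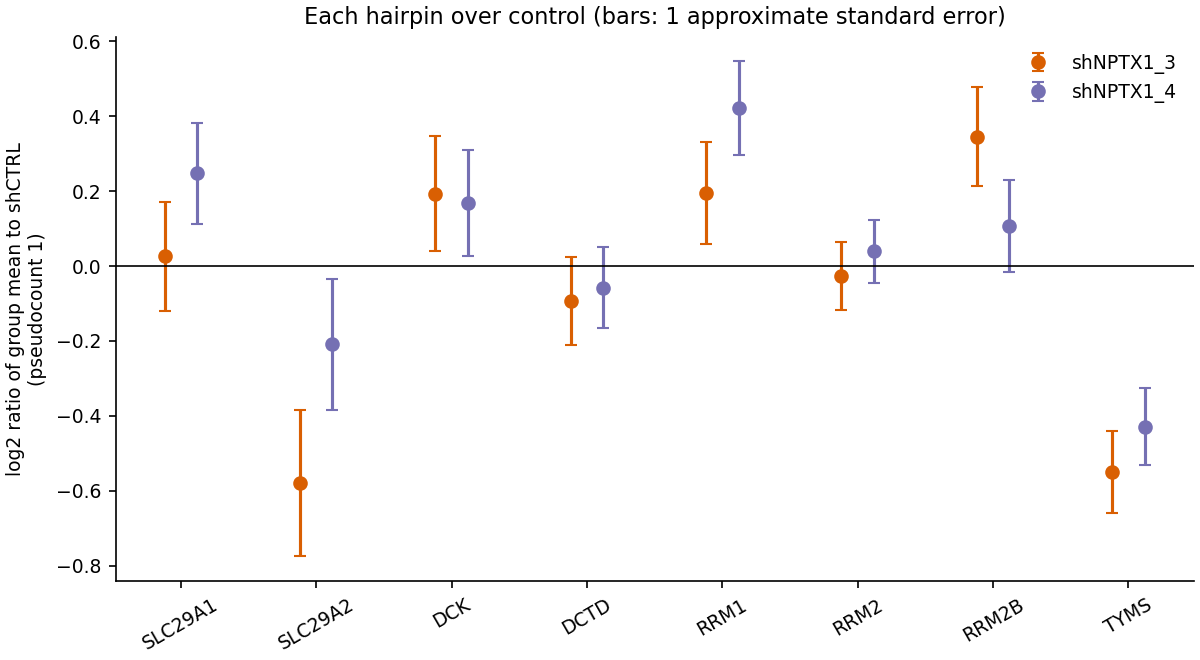
Points give the log2 ratio of each hairpin's group mean to the shCTRL mean (pseudocount 1) for the 8 genes at 2 CPM or more, and bars 1 approximate standard error. TYMS lies below 0 with both hairpins, and RRM2 lies at -0.028 and 0.039.

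Levels of different genes are compared here per kb of exon sequence (GENCODE v29, all exons of a gene merged), computed from the authors' means. In control tumours RRM1 led with 1088 normalized counts per kb, followed by SLC29A1 with 767, RRM2 with 649 and TYMS with 542. DCK, DCTD and RRM2B stood together at 284, 275 and 262 per kb. SLC29A2 followed at 49.5 per kb and CDA at 2.45, and SLC28A3 was lowest with its 2 reads. The deposited errors imply a spread between libraries, beyond counting error, of 8.06% (RRM2) to 14.7% (SLC29A2) for the 8 genes at 2 CPM or more. This spread assumes equal depths and includes the difference between the hairpins. The neighbours DCK, DCTD and RRM2B differed by less than that spread, while RRM1, SLC29A1, RRM2 and TYMS each stood above the next gene by more.

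Among 18599 protein-coding genes with a length, RRM1, SLC29A1, RRM2 and TYMS lay at percentiles 97.5, 96.0, 94.9 and 93.5 of the control level per kb. SLC29A2 lay at percentile 51.7 and CDA at 23.0. With the length of the principal transcript in place of merged exons, RRM1 (1478 per kb) and SLC29A1 (1454) were nearly level and DCTD (484) stood above DCK (338). In the knockdown tumours TYMS stood at 370 (shNPTX1_3) and 403 (shNPTX1_4) per kb of merged exons. It remained above RRM2B, at 333 and 282, and DCK, at 325 and 319, by either length.

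**Figure D4:**
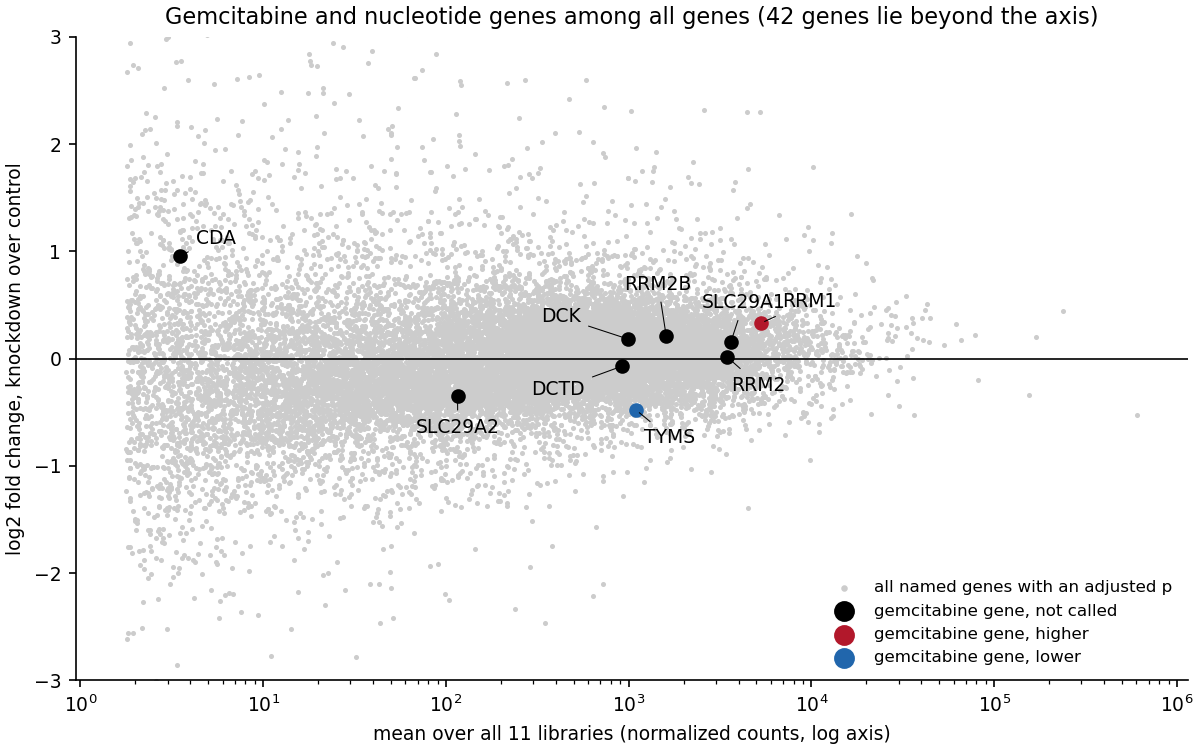
Each grey point is a named gene with an adjusted p, by its mean over all 11 libraries (log axis, normalized counts) and its log2 fold change, and coloured or black points are the 9 tested gemcitabine genes; 42 genes lie beyond the vertical axis. The 8 genes at 2 CPM or more lie within 0.48 of 0 on the log2 scale, inside the cloud of genes of like level.

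The absolute log2 fold changes of the 8 genes had a median of 0.20, beside 0.23 over all 14127 genes at 2 CPM or more. None of the 8 was changed 2-fold, and their standard errors ran from 0.07 to 0.16, beside a median of 0.13 over genes at 2 CPM or more.

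The wider nucleotide network was described with 8 lists holding 81 further genes, 79 of them with an adjusted p. Of these, 17 rose and 3 fell per the authors' deposited table (25.3% called, beside 27.3% of all genes), and with equal totals the split was 12 higher and 6 lower. The median log2 fold change of the 79 was 0.10, beside -0.0078 over all tested genes. Of the 81 genes, 72 lay at 2 CPM or more, a level at which 32.5% of all genes were called and the median was 0.023. The 4 genes that met the rule for naming were NME1, PRPS1, PRPS2 and IMPDH1. Other list genes are named below after their values were seen.

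Nucleoside kinases add the first phosphate and nucleotide kinases the later ones. Together they gave 7 higher and 1 lower call among 21 tested genes per the authors' deposited table (38.1% called), or 5 and 1 with equal totals. Over all tested genes 27.3% were called, 15.8% higher and 11.5% lower. With equal totals the shares over all genes were 11.6% higher and 16.4% lower. CMPK1, the UMP/CMP kinase that adds the second phosphate to gemcitabine, had means of 2118, 2991 and 2669 normalized counts per the authors' deposited table. It rose by 0.41 there (SE 0.10, DESeq2 adjusted p = 3.92e-04). NME1, a nucleoside diphosphate kinase that adds the third phosphate, rose by 0.55 and its neighbour NME2 by 0.39 per the authors' deposited table, and the readthrough of the 2 genes can share their reads. TK1, the S-phase thymidine kinase that makes dTMP by salvage, rose by 0.35 per the authors' deposited table (adjusted p = 0.00945, DESeq2), the opposite direction to TYMS. These 4 kinases kept their calls with equal totals, whereas TK2, the mitochondrial thymidine kinase, lost its call. UCKL1, a uridine-cytidine kinase relative, fell by 0.40 per the authors' deposited table.

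Of 12 tested nucleotidases and nucleotide-cleaving enzymes, NT5C2, DUT and NUDT1 rose per the authors' deposited table and none fell (6 higher and 0 lower at an unadjusted DESeq2 p under 0.05), and NUDT1 lost its call with equal totals. The 3 calls are 25% of the tested genes of this list, beside 27.3% of all genes. DUT, which makes the dUMP used by TYMS, rose by 0.35, and NT5C2, a cytosolic nucleotidase, by 0.25 per the authors' deposited table. SAMHD1, which hydrolyses deoxynucleotide triphosphates, was not called, with means of 371, 367 and 271 normalized counts per the authors' deposited table.

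All 4 carriers outside the 10 genes (SLC28A1, SLC28A2, SLC29A3 and SLC29A4) had negative log2 fold changes, from -0.44 to -0.30, of which SLC29A4, a monoamine and adenosine transporter, fell per the authors' deposited table (-0.41, DESeq2 adjusted p = 0.00689). Of 5 tested pyrimidine breakdown genes, DPYD, the first enzyme of uracil breakdown, rose by 0.43 per the authors' deposited table, a call lost with equal totals. As deposited, 25% of these carriers and 20% of the breakdown genes were called, beside 27.3% of all genes.

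De novo synthesis was mixed. UMPS, which completes UMP synthesis, rose by 0.29 per the authors' deposited table, where it was 1 of 5 pyrimidine synthesis genes and no other was called. With equal totals CAD, which starts the pathway, was also called, as lower (adjusted p = 0.0479). Among 13 purine synthesis genes, 3 rose and 1 fell per the authors' deposited table, or 2 and 1 with equal totals. The 2 paralogous PRPP synthetases parted: PRPS1 rose by 0.52, with means of 862, 1104 and 1335 normalized counts, and PRPS2 fell by 0.55, with means of 769, 536 and 518, all per the authors' deposited table. IMPDH1, a rate-limiting enzyme of guanine nucleotide synthesis, rose by 0.51 and ADSL by 0.32 per the authors' deposited table, and ADSL lost its call with equal totals. Of 8 salvage and breakdown genes, APRT, which recycles adenine, rose by 0.49 per the authors' deposited table, and with equal totals GDA, guanine deaminase, was also called, as lower (adjusted p = 0.0196). The shares called as deposited were 20% for pyrimidine synthesis, 30.8% for purine synthesis and 12.5% for salvage and breakdown, beside 27.3% of all genes.

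**Figure D5:**
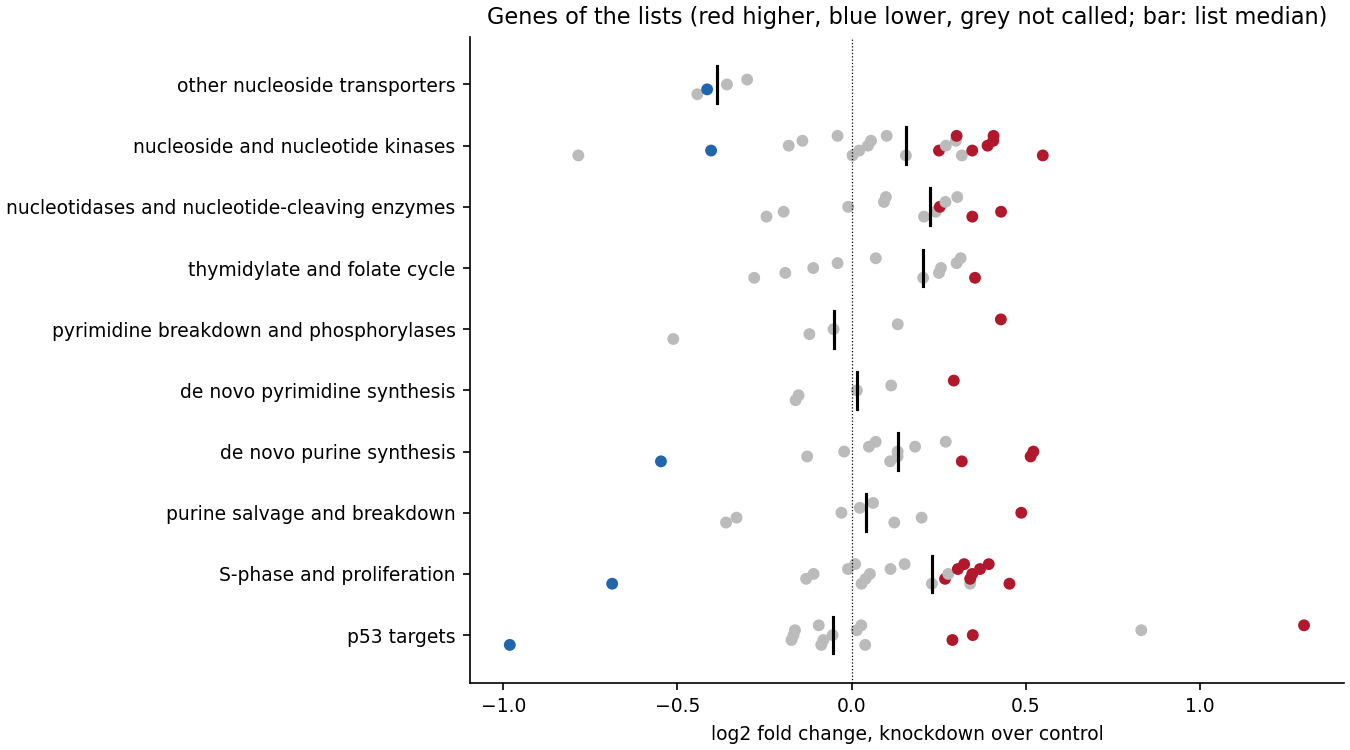
Each point is a tested gene by its log2 fold change, 1 row per list, in red where called higher, blue where called lower and grey where not called, with a black bar at the list median. Most points lie within 0.5 of 0, and PRPS1 and PRPS2 lie at 0.52 and -0.55 in the purine synthesis row.

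TYMS and RRM2 are S-phase genes, so 21 S-phase and proliferation genes were set beside them. Of these, 8 rose and 1 fell per the authors' deposited table (42.9% called), with a median log2 fold change of 0.23. That median pools the hairpins. TOP2A, MCM4, MCM6, CCNA2, CDT1, GINS2 and UHRF1, none of them called, lay below control with shNPTX1_3 and above it with shNPTX1_4. The rest lay on 1 side of control with both. Over all tested genes the median was -0.0078, with 15.8% called higher and 11.5% lower. All 21 lay at 2 CPM or more. Among the 14127 genes at that level the median was 0.023 and 32.5% were called, 2740 higher and 1845 lower. With equal totals 2 of the 21 were higher (CCNE1 and TK1) and 1 lower, beside 11.6% and 16.4% of all genes. MKI67, the proliferation marker Ki-67, was the gene that fell, with means of 14460.1, 6978 and 10479.7 normalized counts per the authors' deposited table. PCNA, the DNA polymerase clamp, rose by 0.30 and the cyclin E gene CCNE1 by 0.45 there, and PCNA lost its call with equal totals. The part of cell cycle differences in the results was not tested.

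Markers of the labelled carcinoma cells were present, and the keratins among them moved with the groups. The summed level of KRT7, KRT8, KRT18, KRT19 and EPCAM was 15915, 56172 and 28832 normalized counts in control tumours and those of hairpins 3 and 4. KRT8 (means of 8293, 30512 and 14002) and KRT18 (5877, 16989 and 9450) made up most of these sums. Of the 5, the 4 keratin genes rose per the authors' deposited table (80%, beside 27.3% of all genes called), KRT7 at a level under 2 CPM. EPCAM was not called, with means of 462, 438 and 548 (adjusted p = 0.665, DESeq2). Of 12 hepatocyte markers 2 rose (25% of 8 tested), with summed levels of 159, 275 and 157. ALB and TTR stayed under 1 normalized count in every group. Of 9 macrophage and leukocyte markers none was called by DESeq2 (6 tested, 0 at an unadjusted p under 0.05), with sums of 864, 930.0 and 765 and with CD163, TYROBP and CD3E at 0 in at least 1 group. Of 6 endothelial markers none was called by DESeq2 (5 tested, 1 at an unadjusted p under 0.05, and 1 called lower with equal totals), with sums of 381, 429 and 382. Of 8 fibroblast markers COL3A1 and LUM rose (25%), with sums of 1742, 6525 and 3466 that COL3A1 dominated in the knockdown groups (means of 731, 5517 and 2247). COL1A2, another collagen gene of that list, pointed the other way, with means of 74.3, 17.8 and 17.5 and a log2 fold change of -2.10 per the authors' deposited table (adjusted p = 0.0559, DESeq2), and was called lower with equal totals (adjusted p = 0.0470). The part of these shifts in the results was not tested, and in bulk tumours fewer cells of a type and less RNA per cell cannot be told apart. The rows carry human gene symbols, and the sources do not say how mouse reads were handled. Host cells and the injected human cells therefore cannot be told apart as the source of a marker, and these sums do not count host cells.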

How the data were processed

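Per the labels' protocols, a Norgen kit gave total RNA and version 2 of the TruSeq RNA kit the libraries. The submitters' processing notes name DESeq2 1.24, featureCounts 2.0.0, STAR 2.7.6a and MultiQC 1.9, beside the builds hg19 and mm39, and give none of them a role. Annotation, strand setting and handling of mouse reads: not given in the sources used here. The group means are a signal that the authors deposited. They were taken here as counts divided by size factors and averaged over a group's libraries, which the file headers do not state. The deposited log2 fold change and standard error are of the 7 knockdown over the 4 control libraries. The Wald score in the authors' deposited table is their quotient. The deposited p-value and its adjusted form carry DESeq2's column names, per the file headers.

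Of 23434 rows, 107 without a usable name were left out (79 blank, 26 turned into dates, 2 repeated). Calls used a deposited adjusted p under 0.05, which covers the whole table. CPM were computed from the means over all libraries, so that 2 CPM is 38.6 normalized counts. A value for 1 hairpin is the log2 ratio of group means with a pseudocount of 1. Its standard error was rebuilt from the dispersion that the deposited error implies, assuming equal library depths, although the depths read from single-read steps differ within groups. A simulation of this step took its errors from the same formula and drew equal depths. It therefore checks the computation only and cannot show how well the step works on these libraries. Equal totals means that every log2 fold change was lowered by 0.066, and centring lowered it by 0.023 (the median of genes at 2 CPM or more). All 10 genes are named. List genes are named where called, at 2 CPM or more, with both hairpins on 1 side of control and an absolute log2 fold change of at least 0.5. The planned lengths of RefSeq transcripts were replaced by GENCODE v29 exons. The genes and lists were chosen with earlier results of these data known. Depth per library was read from single-read steps in the group means, and precision is given by the deposited errors. Computations used Python 3.11.15, numpy 2.4.6, scipy 1.17.1 and pandas 2.3.3. Some genes of the lists are not reported here by name.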

Additional observations from a re-analysis of the deposited data

How the results depend on the processing

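Of 119 alternative values for the 10 genes and the lists, 110 kept their direction and their side of the threshold, or moved by less than their error. This count is a weak measure, since pseudocounts barely move well-expressed genes and a new adjustment of p leaves a fold change as it is. List genes called higher, which went from 17 to 12 with equal totals, were also counted as kept. With equal totals RRM1 was no longer called (log2 fold change 0.26, adjusted p = 0.0593), SLC29A2 was called (-0.41, adjusted p = 0.0327), and the genes of the 8 lists called lower numbered 6. The sign of RRM2, which was not called, turned to -0.054 with equal totals and to -0.010 with centring on the median. For shNPTX1_3 alone the log2 ratio was 0.026 for SLC29A1, -0.58 for SLC29A2, 0.19 for RRM1 and 0.35 for RRM2B, each over 1 standard error from the value of both hairpins. The causes of the hairpin values were not tested, while equal totals lower every fold change by construction. The number of the 10 genes called was 2 under each scaling and each adjustment tried. Pseudocounts of 0 and 10 moved no hairpin ratio by more than its approximate error. No paired analysis was possible because the authors' deposited table gives group means and not values of single libraries, and for the same reason no replicate was left out in turn. Depth limits CDA and SLC28A3, whose changes cannot be placed.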
